A study of Mus musculus with 12 samples.

Results

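Solute carriers are the membrane proteins that move amino acids, sugars, nucleotides, vitamins, metabolites and ions across the plasma membrane and the membranes of organelles. The genes described here are those of the deposited expression table whose symbol starts with Slc and a number and whose level reached 0 log2 CPM, which is 1 CPM, counts relative to library size, in at least 3 of the 12 libraries. The carriers of families 11, 27, 30, 39 and 40 (metals and fatty acids) and Slc2a1, Slc7a1, Slc7a2, Slc7a11, Slc16a1 and Slc16a3 were set aside. Of 222 rows with such a symbol, 25 belonged to the families set aside, 6 were the single genes set aside and 19 missed the level, which left 172 members of 13553 genes, from 41 families. Of these 172, 6 carry the prefix but are named after a neighbouring gene or a binding partner and are not carriers, among them the scaffold proteins Slc9a3r1 and Slc9a3r2. Just inside the level stood Slc18b1, with 8 libraries at or above 0, and Slc26a9, with 3 such libraries, the lowest of them at 0.39 log2 CPM. Just outside stood Slc1a2, with a highest value of 0.35 and 2 libraries at or above 0, and Slc9a2, with a highest value of 0.29 and 1 such library.

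Solute carriers use ion gradients, exchange of one solute for another or the concentration difference of the solute itself. Plasma membrane members decide which nutrients a cell takes up, lysosomal members return the products of digestion to the cytosol, and members of the SLC25 family connect the mitochondrial matrix with the cytosol. In macrophages, carriers of amino acids, glucose, heme and phosphate feed growth and the handling of engulfed material. Retinoic acid acts through nuclear receptors that bind repeats of a short hexamer in DNA, and IL4 acts through the transcription factor STAT6.

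The study measured mRNA in macrophages grown for 7 days from the bone marrow of wild-type male C57BL/6 mice with 10 ng/mL of M-CSF, a growth factor for macrophages. The cells were kept without IL4 (naive) or given 20 ng/mL of IL4 for 24 h, then washed and given all-trans retinoic acid (RA) at 1 µM, or DMSO alone (vehicle), for 6 h. This gave 4 groups of 3 libraries, numbered 2, 3 and 4 in each: naive cells with vehicle or RA (naive vehicle and naive RA) and IL4 cells with either (IL4 vehicle and IL4 RA). The labels do not tell whether replicates stem from different animals or cultures, and a p-value here reflects no more than the spread among these libraries.

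The depth behind the values is not known from the sources used here. Converted to CPM, the values of a library added up to 950904 to 1056493 CPM, and replicates of a group correlated across genes at 0.9928 to 0.9959 (Pearson's r, a description). The members together took 1.08% to 1.16% of the CPM in naive libraries and 1.02% to 1.06% in IL4 libraries. All 8 macrophage markers were in the table, with a summed level of 36500 to 40900 CPM in naive and 21000 to 23600 CPM in IL4 libraries. None of the B cell or mast cell markers were in it. Summed markers of other cells moved with the groups. Of 6 dendritic cell markers 4 were in the table and summed to 35.5 to 42.7 CPM in naive and 1640 to 1910 CPM in IL4 libraries. Most of that sum was Itgax, with a mean of 5.13 log2 CPM in naive vehicle and 10.74 in IL4 vehicle. Between these groups Zbtb46 rose (-0.95 to 2.60) and Kit fell (1.79 to -0.10), and Xcr1 reached no more than -0.22 in any library. The 2 of 4 eosinophil markers present went from 8.61 to 10.8 CPM in naive up to 68.8 to 104 CPM in IL4 libraries. All 6 stromal and endothelial markers were present, at 33.2 to 48.5 CPM in naive and 13.6 to 26.5 CPM in IL4 libraries. Of 6 T and NK cell markers 2 were present, at 0.912 to 1.23 CPM and 1.88 to 2.21 CPM, and of 6 neutrophil and progenitor markers only S100a8, at 1.46 to 1.94 CPM and 3.06 to 3.94 CPM. Of 6 megakaryocyte and erythroid markers, 3 were present, and their sum moved with RA, from 26.2 to 33.1 CPM to 45.5 to 64.3 CPM in naive cells and from 20.9 to 33.6 CPM to 41.8 to 58.2 CPM in IL4 cells. The part of these cells in the results was not tested, and in bulk RNA fewer cells of a type and less RNA per cell cannot be told apart.

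The comparison of RA with vehicle within each cell state asked how the members responded to 6 h of RA. In naive cells 12 members rose and 7 fell at an adjusted p under 0.05 in limma's moderated test with Benjamini-Hochberg adjustment over all 12116 genes tested. That was 11% of the members, against 6.26% of all genes tested (3.24% higher and 3.03% lower). In IL4 cells 21 members rose and 8 fell, 16.9% of the members against 11.7% of all genes tested (6.5% higher and 5.18% lower). The median log2 difference over the members was -0.01 in naive and 0.01 in IL4 cells, and over all genes tested 0.00 in both. The count in naive cells moved most: it was 12 when naive vehicle library 2 was left out and 11 when naive RA library 2 was. It was 42 (17 higher, 25 lower) when libraries were weighted by their spread. The calls over all genes tested moved likewise, from 759 to 505, 591 and 1950.

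The cell states share no library, and 16 members were called in both with the same direction. The 11 that rose in both made up 91.7% of those that rose in naive cells and 52.4% of those that rose in IL4 cells. Among them were Slc2a6, Slc8b1, Slc9a3r1, Slc20a1, Slc25a10, Slc25a44, Slc25a51, Slc26a9, Slc45a4 and Slc49a4. The 5 that fell in both were Slc4a7, Slc9b2, Slc12a4, Slc25a24 and Slc37a3, which is 71.4% of those that fell in naive cells and 62.5% of those that fell in IL4 cells. No member was called in opposite directions. Over all genes tested the shares were 79.8% and 39.7% for the higher calls (313 genes) and 55.3% and 32.3% for the lower calls (203 genes).

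**Figure D1:**
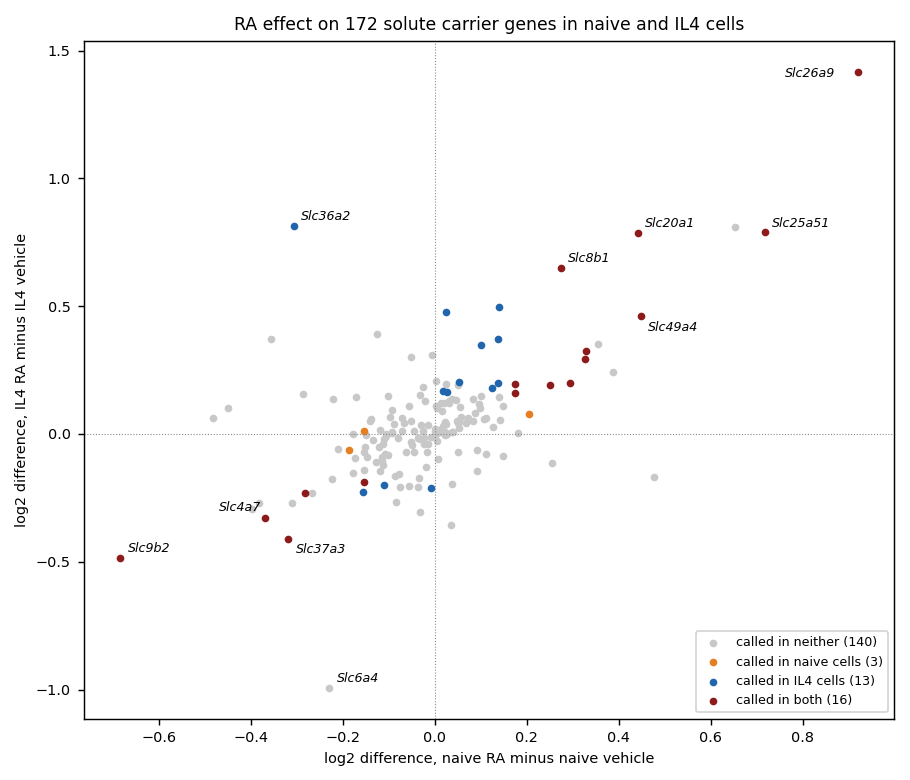
Each point is 1 of the 172 members, with the RA log2 difference in naive cells on the horizontal axis and in IL4 cells on the vertical axis (group means, n = 3 each), coloured by where it was called. The 16 members called in both lie in the lower left and upper right of the plot, from Slc9b2 (-0.68 and -0.48) to Slc26a9 (0.92 and 1.42), and 140 members were called in neither.

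By substrate class, the carriers of inorganic anions and chloride had 3 higher and 2 lower RA calls of 14 in naive cells and 4 higher and 2 lower in IL4 cells. These are 35.7% and 42.9%, against 6.26% and 11.7% of all genes tested. The higher calls of both states hold Slc26a9, in the set through its IL4 RA libraries only, which supports nothing in these shares. Slc20a1 (Entrez 20515, GRCm38.p6 chr2:129198773-129211615), the sodium-coupled phosphate importer PiT1, stood at 5.98, 5.95 and 6.04 log2 CPM in naive vehicle, 6.42, 6.49 and 6.39 in naive RA, 6.19, 6.31 and 6.27 in IL4 vehicle and 7.05, 7.12 and 6.96 in IL4 RA libraries. Every RA library lay above every vehicle library of its cell state. The log2 difference was 0.44 (SE 0.05, limma adjusted p = 7.39e-05) in naive and 0.79 (SE 0.05, adjusted p = 2.07e-07) in IL4 cells.

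Slc26a9, a chloride transporter, was low throughout: -1.61, -1.57 and -1.12 log2 CPM in naive vehicle, -0.53, -0.58 and -0.43 in naive RA, -0.74, -1.17 and -1.03 in IL4 vehicle and 0.39, 0.44 and 0.49 in IL4 RA libraries. In each state the RA libraries lay above the vehicle libraries without overlap. Only the IL4 RA libraries reached 1 CPM, and this member is in the set through them, so it had to be high there. Its log2 differences, 0.92 in naive and 1.42 in IL4 cells, are given as a description with no test, and its calls support nothing in the counts that hold it.

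Slc26a11, a sulfate and anion transporter of the same family, was called in IL4 cells, where it went from 3.08, 3.05 and 3.27 to 3.68, 3.57 and 3.64 log2 CPM (0.50, SE 0.07, limma adjusted p = 0.000273). In naive cells it stood at 5.37, 5.35 and 5.25 in vehicle and 5.53, 5.47 and 5.38 in RA libraries, a difference of 0.14 (SE 0.07, adjusted p = 0.265). Its RA libraries were the higher ones in both states, and whether the responses differed is given with the interaction below.

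A bicarbonate transporter and a chloride cotransporter of this class fell with RA in both states. Slc4a7, which brings sodium and bicarbonate into the cell, stood at 6.28, 6.12 and 6.29 log2 CPM in naive vehicle, 5.90, 5.85 and 5.84 in naive RA, 6.66, 6.57 and 6.74 in IL4 vehicle and 6.51, 6.17 and 6.31 in IL4 RA libraries. The RA libraries were the lower ones without overlap in both states, by -0.37 (SE 0.08, limma adjusted p = 0.0105) and -0.33 (SE 0.08, adjusted p = 0.0129). The naive call needed naive vehicle library 4 (adjusted p = 0.059 without it), and the other needed IL4 vehicle library 4 (0.0551) and IL4 RA library 3 (0.0588). The potassium-chloride cotransporter Slc12a4 fell by 0.15 (SE 0.04, adjusted p = 0.0288) in naive cells and by 0.19 (SE 0.04, adjusted p = 0.00562) in IL4 cells. Its naive call ended on leaving out naive vehicle library 2 or 3 (adjusted p = 0.0882 and 0.0878) or any naive RA library (0.0866, 0.0725 and 0.0884).

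Mitochondrial carriers, 37 members, had 3 higher and 1 lower call in naive cells and 5 higher and 1 lower in IL4 cells. These are 10.8% and 16.2%, against 6.26% and 11.7% of all genes tested. Slc25a51 (Entrez 230125, GRCm38.p6 chr4:45395923-45408917), which carries NAD+ into the matrix, stood at 6.04, 6.00 and 5.94 log2 CPM in naive vehicle, 6.72, 6.71 and 6.71 in naive RA, 5.74, 5.93 and 5.99 in IL4 vehicle and 6.67, 6.67 and 6.69 in IL4 RA libraries. All 6 RA libraries lay close together and above all 6 vehicle libraries. The log2 difference was 0.72 (SE 0.05, limma adjusted p = 2.83e-06) in naive and 0.79 (SE 0.05, adjusted p = 5.14e-07) in IL4 cells.

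Slc25a44, a carrier of branched-chain amino acids, rose by 0.33 in naive cells (SE 0.05, limma adjusted p = 0.000528) and by 0.33 in IL4 cells (SE 0.05, adjusted p = 0.000391). Its libraries stood at 5.22, 5.26 and 5.26 log2 CPM in naive vehicle and 5.56, 5.54 and 5.62 in naive RA, and at 5.08, 4.95 and 5.05 in IL4 vehicle and 5.40, 5.31 and 5.36 in IL4 RA. Slc25a10, the dicarboxylate carrier that exchanges malate and succinate for phosphate, rose by 0.33 (SE 0.06, adjusted p = 0.00638) and 0.29 (SE 0.06, adjusted p = 0.00797). The mitochondrial carrier that fell was Slc25a24, a calcium-regulated carrier of ATP-Mg and phosphate, by -0.28 (SE 0.04, adjusted p = 0.00109) in naive and -0.23 (SE 0.04, adjusted p = 0.00302) in IL4 cells. Its RA libraries did not overlap the vehicle libraries in either state: 5.82, 5.80 and 5.82 against 5.56, 5.56 and 5.49 log2 CPM in naive cells, and 5.84, 5.91 and 5.96 against 5.66, 5.62 and 5.73 in IL4 cells.

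Among the 16 carriers of inorganic cations and protons, 1 rose and 1 fell in each state, 12.5% against 6.26% (naive) and 11.7% (IL4) of all genes tested. Slc8b1 (Entrez 170756, GRCm38.p6 chr5:120511168-120534024), the sodium-calcium exchanger of the inner mitochondrial membrane also called NCLX, stood at 6.80, 6.91 and 6.82 log2 CPM in naive vehicle, 7.10, 7.15 and 7.10 in naive RA, 6.41, 6.54 and 6.49 in IL4 vehicle and 7.13, 7.22 and 7.05 in IL4 RA libraries. The vehicle libraries were lower in IL4 cells than in naive cells, and the RA libraries of both states lay in 1 range. The RA difference was 0.27 (SE 0.05, limma adjusted p = 0.00446) in naive and 0.65 (SE 0.05, adjusted p = 1.67e-06) in IL4 cells.

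Slc9b2, a sodium-proton exchanger known from osteoclasts, was the member of this class that fell. It stood at 2.57, 2.14 and 2.46 log2 CPM in naive vehicle, 1.64, 1.82 and 1.67 in naive RA, 3.33, 3.09 and 3.13 in IL4 vehicle and 2.77, 2.74 and 2.59 in IL4 RA libraries. The 4 groups did not overlap: naive RA was lowest, IL4 vehicle highest. The RA difference was -0.68 (SE 0.12, limma adjusted p = 0.00247) in naive and -0.48 (SE 0.12, adjusted p = 0.0151) in IL4 cells, and the latter call needed IL4 vehicle library 2 (adjusted p = 0.0661 without it) and IL4 RA library 4 (0.0601).

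**Figure D2:**
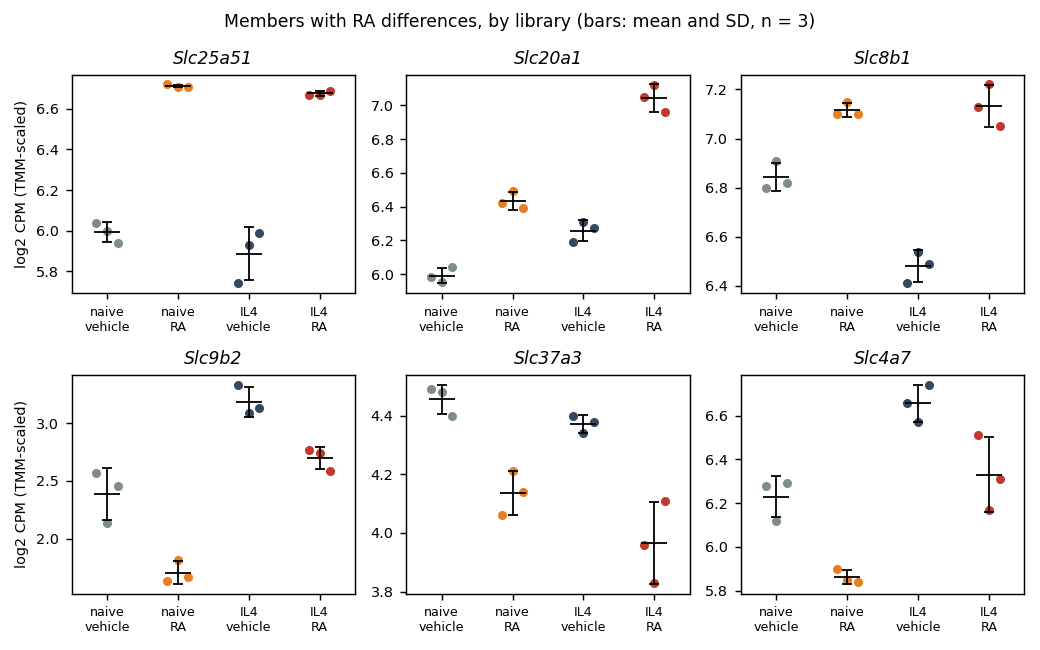
Points are single libraries of 6 members, in log2 CPM on axes that differ between panels and do not start at 0, with the mean and SD of each group (n = 3). Slc25a51, Slc20a1 and Slc8b1 are higher in RA than in vehicle libraries in both cell states, and Slc9b2, Slc37a3 and Slc4a7 lower.

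Of 12 sugar and polyol carriers, 2 rose and 1 fell in each state, 25% against 6.26% (naive) and 11.7% (IL4) of all genes tested. The carrier that fell was Slc37a3, which in human cells works with ATRAID to release bisphosphonates from lysosomes: 4.49, 4.48 and 4.40 log2 CPM in naive vehicle, 4.06, 4.21 and 4.14 in naive RA, 4.40, 4.34 and 4.38 in IL4 vehicle and 3.96, 3.83 and 4.11 in IL4 RA libraries. Every RA library was below every vehicle library, by -0.32 (SE 0.07, limma adjusted p = 0.013) in naive and -0.41 (SE 0.07, adjusted p = 0.00151) in IL4 cells. The naive call needed library 2 of naive vehicle (adjusted p = 0.0534 without it) and library 2 of naive RA (0.0531). Slc2a6, a lysosomal hexose transporter, rose by 0.29 (SE 0.06, adjusted p = 0.00814) in naive and by 0.20 (SE 0.06, adjusted p = 0.0418) in IL4 cells. In IL4 cells the call of Slc2a6 ended on leaving out any of 8 libraries (adjusted p = 0.0511 to 0.168). They were numbers 2 and 4 of naive vehicle, 3 and 4 of naive RA, 3 and 4 of IL4 vehicle, and 2 and 3 of IL4 RA.

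Slc45a4 rose by 0.25 in naive (SE 0.06, limma adjusted p = 0.0195) and by 0.19 in IL4 cells (SE 0.06, adjusted p = 0.0457). In IL4 cells its vehicle libraries (4.34, 4.53 and 4.41 log2 CPM) and RA libraries (4.71, 4.62 and 4.52) overlapped, and the call survived the removal of library 3 of IL4 vehicle or 4 of IL4 RA, but of none of the other 10 (adjusted p = 0.0529 to 0.154). The naive call ended on leaving out number 2 or 4 of naive vehicle (adjusted p = 0.0612 and 0.0717) or 2 or 3 of naive RA (0.065 and 0.0693).

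Of 12 carriers of vitamins, cofactors, heme and choline, 1 rose and 1 fell in naive cells, and 3 rose in IL4 cells. These are 16.7% and 25%, against 6.26% and 11.7% of all genes tested. Slc49a4, a lysosomal membrane carrier, stood at 4.40, 4.44 and 4.34 log2 CPM in naive vehicle, 4.73, 4.85 and 4.94 in naive RA, 4.31, 4.38 and 4.28 in IL4 vehicle and 4.75, 4.75 and 4.86 in IL4 RA libraries. RA libraries were the higher ones without overlap, by 0.45 (SE 0.06, limma adjusted p = 0.000427) and 0.46 (SE 0.06, adjusted p = 0.000223). Slc46a1, the proton-coupled folate transporter, rose in IL4 cells by 0.35 (SE 0.09, adjusted p = 0.0283), a call that needed IL4 vehicle library 2 (adjusted p = 0.102 without it) and IL4 RA library 3 (0.116). The choline transporter Slc44a1 fell in naive cells by 0.15 (SE 0.04, adjusted p = 0.0318), a call that ended on leaving out any naive vehicle library or number 2 or 4 of naive RA (adjusted p = 0.0528 to 0.129).

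Of 29 amino acid and peptide carriers, 1 rose and 1 fell with RA in naive cells and 2 rose in IL4 cells, 6.9% in each state against 6.26% and 11.7% of all genes tested. Slc38a2, a sodium-coupled importer of small neutral amino acids, stood at 7.08, 7.03 and 7.09 log2 CPM in naive vehicle and 6.93, 6.82 and 6.88 in naive RA libraries, without overlap (-0.19, SE 0.04, limma adjusted p = 0.00805). In IL4 cells its difference was -0.06 (SE 0.04, adjusted p = 0.317). Slc15a3, a lysosomal carrier of histidine and peptides, rose in naive cells by 0.21 (SE 0.05, adjusted p = 0.032), a call that ended on leaving out number 2 or 4 of naive vehicle or any naive RA library (adjusted p = 0.0539 to 0.138). Slc16a10, a carrier of aromatic amino acids, rose in IL4 cells by 0.37 (SE 0.07, adjusted p = 0.00344).

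Slc36a2, a proton-coupled carrier of small amino acids, had the largest IL4-state increase of this class, 0.82 (SE 0.19, limma adjusted p = 0.0116), from 1.25, 1.84 and 1.81 to 2.32, 2.47 and 2.55 log2 CPM. In naive cells its libraries overlapped, at 0.33, 0.16 and 0.69 in vehicle and -0.12, 0.21 and 0.17 in RA libraries (-0.31, SE 0.19, adjusted p = 0.402). The large-neutral-amino-acid carriers Slc7a5 and Slc7a8, their partner Slc3a2 and the glutamine exchanger Slc1a5 did not pass in either state (smallest limma adjusted p 0.201). Slc7a5 differed by -0.04 and 0.01, Slc7a8 by -0.22 and 0.14, Slc1a5 by 0.00 and 0.01, and Slc3a2 by -0.11 and -0.08. In naive cells Slc7a8 passed with the replicate number as a block (limma adjusted p = 0.00868) and with libraries weighted by their spread (0.0297).

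Carriers of nucleotide sugars, nucleosides and organic ions had no RA call in naive cells and a few in IL4 cells, which is a count and not a test of a difference between the states. In IL4 cells 19%, 20% and 7.14% of these classes were called, against 11.7% of all genes tested. Carboxylate carriers had none in either. Of 21 carriers of nucleotide sugars, 2 rose and 2 fell: Slc35b1, the ER carrier of ATP and ADP, rose by 0.20 (SE 0.05, limma adjusted p = 0.0162), and Slc35a3, the UDP-N-acetylglucosamine carrier of the Golgi, fell by 0.23 (SE 0.05, adjusted p = 0.0103). The Slc35b1 call needed number 2 of IL4 vehicle (adjusted p = 0.0653 without it) and 3 and 4 of IL4 RA (0.0673 and 0.0552), and the Slc35a3 call number 3 of IL4 RA (0.0514). Slc29a3, the lysosomal nucleoside transporter, fell by 0.21 (SE 0.06, adjusted p = 0.0285), a call that ended on leaving out number 3 or 4 of IL4 vehicle or 2 or 4 of IL4 RA (adjusted p = 0.0735 to 0.123). Slc17a9, the vesicular ATP transporter, rose by 0.48 (SE 0.12, adjusted p = 0.0219), which ended on leaving out any IL4 vehicle library or number 2 or 3 of IL4 RA (0.0547 to 0.0842). The serotonin transporter Slc6a4 went from 2.16, 2.51 and 2.54 to 0.93, 1.26 and 2.04 log2 CPM without overlap but did not pass (-0.99, SE 0.33, adjusted p = 0.0749, and 0.0177 with the replicate number as a block). The monocarboxylate carrier Slc16a6 likewise differed by 0.30 (SE 0.11, adjusted p = 0.0899, and 0.0355 with the block).

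Promoter windows from RefSeq (GRCm38.p6; 250 bases before to 50 after a transcript start) were found for 129 of the 172 members. The hexamer AGGTCA, the unit that retinoic acid receptors bind as a repeat, was searched on both strands and stood in 24 of these members (18.6%), in 15% of the 9643 tested genes with a window and in 18.1% of all 27025 genes with one. It was in 3 of the 6 members with a window among those that RA raised in both states, and in 2 of the 5 that RA lowered in both. Direct repeats of it, AGGTCANAGGTCA, AGGTCANNAGGTCA and AGGTCANNNNNAGGTCA, were in 0 members, and in 0.0415%, 0.0% and 0.0104% of tested genes. For these 5 genes the bases around the hexamer, all of them before an annotated transcript start, are printed 5′ to 3′ on the gene's strand, with AGGTCA or its reverse strand TGACCT in capitals. Slc20a1 chr2:129198707-129198772 (+), Slc49a4 chr16:35769555-35769620 (-) and Slc26a9 chr1:131743772-131743818 (+) rose with RA, and Slc37a3 chr6:39377708-39377764 (-) and Slc4a7 chr14:14718727-14718783 (+) fell.
Slc20a1: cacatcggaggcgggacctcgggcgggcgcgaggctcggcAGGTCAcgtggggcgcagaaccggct
Slc49a4: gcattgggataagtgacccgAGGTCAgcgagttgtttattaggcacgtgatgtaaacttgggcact
Slc26a9: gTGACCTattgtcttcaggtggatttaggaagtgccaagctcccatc
Slc37a3: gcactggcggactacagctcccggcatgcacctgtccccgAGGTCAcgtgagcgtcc
Slc4a7: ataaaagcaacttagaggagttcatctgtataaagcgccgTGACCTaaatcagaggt
The starts used for Slc4a7 and Slc37a3 lie within the genes' RefSeq spans (chr14:14703011-14799944 and chr6:39334770-39377725). The hexamer began 26 bases before the start in Slc20a1, 230 in Slc49a4, 249 in Slc26a9, 17 in Slc37a3 and 17 in Slc4a7. A further match, on the other strand and 75 bases before another start of Slc20a1 (chr2:129206981-129207066), is not printed. In Slc20a1 and Slc37a3 it runs into CACGTG, the E-box hexamer, which was in 17.1% of members with a window and 12% of tested genes; this hexamer was searched after the sequences had been seen. A match of letters is a description and not a binding site.

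The comparison of IL4 with no IL4 was far broader. In vehicle, 41 members were higher and 72 lower in IL4 cells, 65.7% of the members against 60.1% of all genes tested (30.5% higher and 29.6% lower). In RA-treated cells, 51 were higher and 69 lower, 69.8% of the members against 55.7% of all genes tested (29% higher and 26.7% lower). The median member differed by -0.07 in vehicle and -0.05 in RA, and the median gene tested by -0.01 and 0.00. In vehicle 9 members (5.23%) rose and 11 (6.4%) fell by at least 1 on the log2 scale, against 6.73% and 3.77% of all genes tested. The 11 hold Slc7a4, Slc13a2, Slc24a3 and Slc52a3, and the 9 hold Slc9a3r2 and Slc22a23. All of these are in the set through the libraries of 1 cell state and support nothing in these shares. The RA and vehicle comparisons share no library, but they share the estimate of the spread. Of the members, 38 were higher in both (92.7% of the higher calls in vehicle and 74.5% of those in RA), 65 lower in both (90.3% and 94.2%) and 0 opposite. Over all genes tested 3100 were higher in both (83.9% and 88.2%), 2813 lower in both (78.3% and 87.1%) and 8 opposite. Both counts hold 3 lower calls of members that reached 0 log2 CPM in naive libraries only (Slc7a4, Slc13a2 and Slc24a3). They also hold 2 higher calls of members that reached it in IL4 libraries only (Slc9a3r2 and Slc22a23), and these 5 had to differ. The higher calls in RA further hold Slc26a9, which reached it in IL4 RA libraries only. The lower calls of both hold Slc52a3, which met the membership rule through its naive libraries. The calls of Slc26a9 and Slc52a3 likewise support nothing in these counts.

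**Figure D3:**
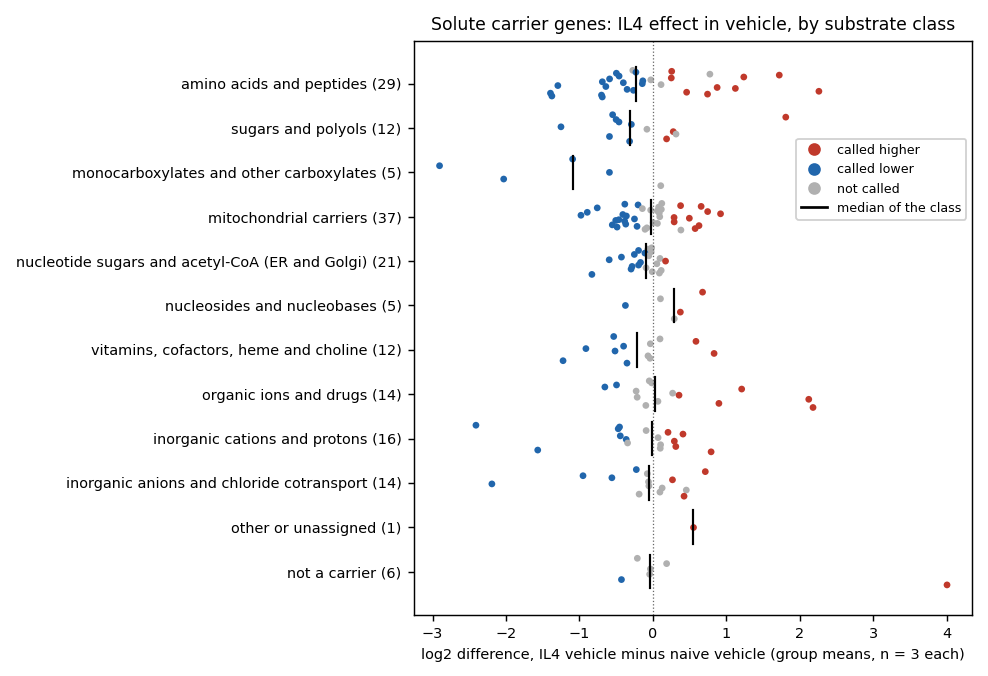
Each point is a member, placed by its log2 difference between IL4 vehicle and naive vehicle (group means, n = 3 each) in the row of its substrate class, with the class size in brackets, the class median as a black bar and calls in colour. Carboxylate carriers lie lowest (median -1.09), and their median is the value of Slc13a2, in the set through its naive libraries only. The highest point is the scaffold gene Slc9a3r2 at 4.00, in the set through its IL4 libraries only.

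Amino acid and peptide carriers were called most often of the classes with more than 1 member, 9 higher and 16 lower of 29 (86.2%, median -0.23). Of all genes tested 60.1% were called (30.5% higher and 29.6% lower). The 16 hold Slc7a4, in the set through its naive libraries only. Slc1a5 (Entrez 20514, GRCm38.p6 chr7:16781334-16798274), an exchanger of glutamine and other neutral amino acids, stood at 4.68, 4.79 and 4.64 log2 CPM in naive vehicle, 4.71, 4.81 and 4.60 in naive RA, 6.37, 6.50 and 6.40 in IL4 vehicle and 6.40, 6.53 and 6.38 in IL4 RA libraries. The IL4 libraries formed a separate range, and within each state RA and vehicle libraries overlapped. The IL4 difference was 1.72 (SE 0.06, limma adjusted p = 7.12e-11) in vehicle and 1.73 (SE 0.06, adjusted p = 8.22e-11) in RA.

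The other large increases of the class were in carriers of the SLC6 family and in Slc36a2. The glycine transporter Slc6a9 went from 0.38, -0.12 and 0.53 to 2.83, 2.60 and 2.14 log2 CPM (2.26, SE 0.24, limma adjusted p = 2.4e-06). The betaine and GABA transporter Slc6a12 rose by 0.87 (SE 0.10, adjusted p = 5.59e-06) and its neighbour on chromosome 6, the GABA transporter Slc6a13, by 1.12 (SE 0.15, adjusted p = 1.81e-05). Slc36a2 rose by 1.24 in vehicle (SE 0.19, adjusted p = 6.77e-05) and by 2.36 in RA (SE 0.19, adjusted p = 1.52e-07).

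Several carriers of large neutral and cationic amino acids fell. Slc43a2, a facilitated carrier of branched-chain and aromatic amino acids, stood at 9.51, 9.30 and 9.37 log2 CPM in naive vehicle and 7.97, 8.10 and 8.23 in IL4 vehicle libraries (-1.29, SE 0.07, limma adjusted p = 2.24e-09). Slc7a7, which exports arginine and lysine in exchange for neutral amino acids, stood at 4.80, 4.84 and 4.77 in naive and 3.52, 3.34 and 3.43 in IL4 vehicle libraries (-1.38, SE 0.06, adjusted p = 3.57e-10). Neither gene's groups came near each other. Slc7a8, the carrier LAT2, fell by 0.69 in vehicle (SE 0.09, adjusted p = 2.59e-05) and by 0.33 in RA (SE 0.09, adjusted p = 0.00798). Slc38a6 fell by 0.69 (SE 0.08, adjusted p = 4.12e-06) and Slc16a10 by 0.50 (SE 0.07, adjusted p = 3.42e-05). Slc7a4, in the set through its naive libraries only, differed by -1.39, given with no test.

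Slc7a5, the carrier LAT1, went the other way, from 3.51, 2.31 and 3.13 to 3.98, 3.67 and 3.53 log2 CPM without overlap (0.74, SE 0.27, limma adjusted p = 0.0279). Naive vehicle library 3 was far below its group, and the call ended without it (0.41, adjusted p = 0.132) as it did without number 2 (adjusted p = 0.102) or 3 (0.0516) of IL4 vehicle. In RA-treated cells the difference was 0.80 (SE 0.27, adjusted p = 0.0211), which ended on leaving out number 3 or 4 of naive RA (0.0898 and 0.0718) or 2 of IL4 RA (0.0744). Its heavy-chain partner Slc3a2 overlapped between naive vehicle (8.77, 8.64 and 8.64) and IL4 vehicle libraries (8.86, 8.79 and 8.72) and did not pass (0.11, SE 0.05, adjusted p = 0.0612, and 0.0269 with the replicate block). Under quantile normalization its sign reversed, to -0.12 in vehicle and -0.07 in RA. The taurine transporter Slc6a6 fell by 0.35 (SE 0.05, adjusted p = 3.48e-05), the creatine transporter Slc6a8 by 0.26 (SE 0.06, adjusted p = 0.00179) and Slc38a2 by 0.14 (SE 0.04, adjusted p = 0.00588). Slc15a3 rose by 0.26 (SE 0.05, adjusted p = 0.000832), a call lost under quantile normalization (0.653).

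Sugar and polyol carriers had 3 higher and 7 lower of 12 (83.3% against 60.1% of all genes tested, median -0.31). Slc2a6 (Entrez 227659, GRCm38.p6 chr2:27021363-27028000) stood at 7.29, 7.38 and 7.27 log2 CPM in naive vehicle, 7.57, 7.64 and 7.62 in naive RA, 9.22, 9.16 and 9.0 in IL4 vehicle and 9.34, 9.40 and 9.23 in IL4 RA libraries. All IL4 libraries lay well above all naive libraries. The IL4 difference was 1.81 (SE 0.06, limma adjusted p = 2.65e-11) in vehicle and 1.72 (SE 0.06, adjusted p = 4.67e-11) in RA. The ER sugar-phosphate carrier Slc37a2 went from 8.57, 8.53 and 8.60 to 7.25, 7.28 and 7.42 (-1.25, SE 0.05, adjusted p = 2.2e-10), and the glucose transporter Slc2a3 from 2.38, 1.98 and 2.42 to 1.47, 1.73 and 1.92 (-0.55, SE 0.14, adjusted p = 0.00485). Slc45a4 fell by 0.59 (SE 0.06, adjusted p = 1.17e-06).

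Carboxylate carriers were lower in 4 of 5 members and higher in 0 (80% called against 60.1% of all genes tested, median -1.09). Slc13a2, with its naive libraries alone above the level, was among the 4, and the median is its value. Slc13a3 (Entrez 114644, GRCm38.p6 chr2:165405295-165473197), the high-affinity sodium-coupled importer of succinate and other dicarboxylates, stood at 4.32, 3.96 and 4.26 log2 CPM in naive vehicle, 3.90, 3.66 and 3.82 in naive RA, 1.49, 1.35 and 0.98 in IL4 vehicle and 1.26, 1.03 and 0.73 in IL4 RA libraries. RA libraries lay below vehicle libraries in naive cells and overlapped them in IL4 cells, with differences of -0.38 and -0.27 that did not pass (limma adjusted p = 0.182 and 0.306). The IL4 difference was -2.90 (SE 0.15, adjusted p = 2.63e-09) in vehicle and -2.79 (SE 0.15, adjusted p = 4.26e-09) in RA. Slc16a6 went from 5.05, 4.93 and 5.19 to 3.03, 2.95 and 3.10 (-2.03, SE 0.11, adjusted p = 2.27e-09).

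Mitochondrial carriers had 9 higher and 15 lower of 37 (64.9% against 60.1% of all genes tested, median -0.03). Calcium-regulated ATP-Mg and phosphate carriers moved in different directions: Slc25a25 went from 4.24, 4.14 and 4.24 to 5.22, 5.11 and 5.05 log2 CPM (0.92, SE 0.05, limma adjusted p = 6.32e-09), and Slc25a23 from 2.29, 2.10 and 2.23 to 1.34, 1.35 and 1.25 (-0.89, SE 0.11, adjusted p = 1.01e-05). The ADP/ATP exchanger Slc25a5 rose by 0.57 (SE 0.04, adjusted p = 2.65e-08). The ornithine carrier Slc25a15 fell by 0.76 (SE 0.09, adjusted p = 9.62e-06) and Slc25a27, an uncoupling-protein relative, by 0.98 (SE 0.16, adjusted p = 0.000133). The citrate carrier Slc25a1 differed by 0.12 in vehicle (SE 0.06, adjusted p = 0.0839) and 0.12 in RA (adjusted p = 0.0965), with overlapping libraries in vehicle.

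Carriers of vitamins, cofactors, heme and choline had 2 higher and 6 lower of 12 (66.7% against 60.1% of all genes tested, median -0.21). Slc48a1, which returns heme from lysosomes, went from 8.26, 8.02 and 8.11 to 9.0, 8.96 and 8.93 log2 CPM (0.83, SE 0.07, limma adjusted p = 3.37e-07). Slc46a1 went from 3.76, 3.67 and 3.77 to 2.61, 2.93 and 2.91 (-0.91, SE 0.09, adjusted p = 2.02e-06). The riboflavin transporter Slc52a3, in the set through its naive libraries, fell by 1.22 in vehicle, given with no test. Its IL4 vehicle libraries stood at 0.39, -0.45 and -0.39 log2 CPM, and its IL4 RA libraries all lay below 0. In RA-treated cells Slc52a3 differed by -0.68, also given with no test.

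Of 14 carriers of organic ions and drugs, 5 were higher and 2 lower, 50% against 60.1% of all genes tested. The 5 hold Slc22a23, in the set through its IL4 libraries only. The serotonin transporter Slc6a4 went from 0.07, -0.45 and 1.05 to 2.16, 2.51 and 2.54 log2 CPM (2.18, SE 0.33, limma adjusted p = 8.23e-05), and the ergothioneine transporter Slc22a4 from 3.60, 3.75 and 3.70 to 4.61, 4.58 and 4.55 (0.90, SE 0.06, adjusted p = 1.99e-08). Slc17a9 fell by 0.65 (SE 0.12, adjusted p = 0.000412). Of 5 nucleoside carriers 2 rose and 1 fell (60%): Slc29a3 rose by 0.37 (SE 0.06, adjusted p = 7.89e-05), the concentrative nucleoside transporter Slc28a2 rose by 0.68 (SE 0.15, adjusted p = 0.00131), and Slc29a2 fell by 0.37 (SE 0.13, adjusted p = 0.0272), which needed number 2 of naive vehicle (0.14 without it) and 2 and 4 of IL4 vehicle (0.0855 and 0.0754). Slc28a2 has a close copy, Slc28a2b, in the table, and reads may be shared between them.

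Inorganic cation and proton carriers had 5 higher and 6 lower of 16, and anion and chloride carriers 3 higher and 4 lower of 14. These are 68.8% and 50%, against 60.1% of all genes tested. Slc26a11 (Entrez 268512, GRCm38.p6 chr11:119355509-119381076), whose values are given above, fell by 2.19 in vehicle (SE 0.07, limma adjusted p = 1.42e-11) and by 1.84 in RA (SE 0.07, adjusted p = 8.22e-11). The endosomal sodium-proton exchanger Slc9a9 went from 5.79, 5.69 and 5.73 to 4.30, 4.03 and 4.18 log2 CPM (-1.57, SE 0.08, adjusted p = 2.76e-09). The calcium exchanger Slc24a3, in the set through its naive libraries only, went from 1.90, 1.18 and 1.64 to -1.32, -0.91 and -0.27, a difference of -2.41 given with no test.

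Potassium-chloride cotransporters went in opposite directions with IL4. Slc12a4 went from 6.40, 6.42 and 6.35 to 7.10, 7.08 and 7.13 log2 CPM (0.71, SE 0.04, limma adjusted p = 2.72e-09), and Slc12a7 from 5.40, 5.30 and 5.34 to 4.45, 4.35 and 4.39 (-0.95, SE 0.06, adjusted p = 1.15e-08). Slc9b2 rose by 0.79 (SE 0.12, adjusted p = 5.09e-05), Slc4a7 by 0.42 (SE 0.08, adjusted p = 0.000309) and Slc20a1 by 0.27 (SE 0.05, adjusted p = 0.000333). Slc8b1 fell by 0.36 in vehicle (SE 0.05, adjusted p = 2.98e-05), while in RA-treated cells its difference was 0.01 (SE 0.05, adjusted p = 0.83).

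**Figure D4:**
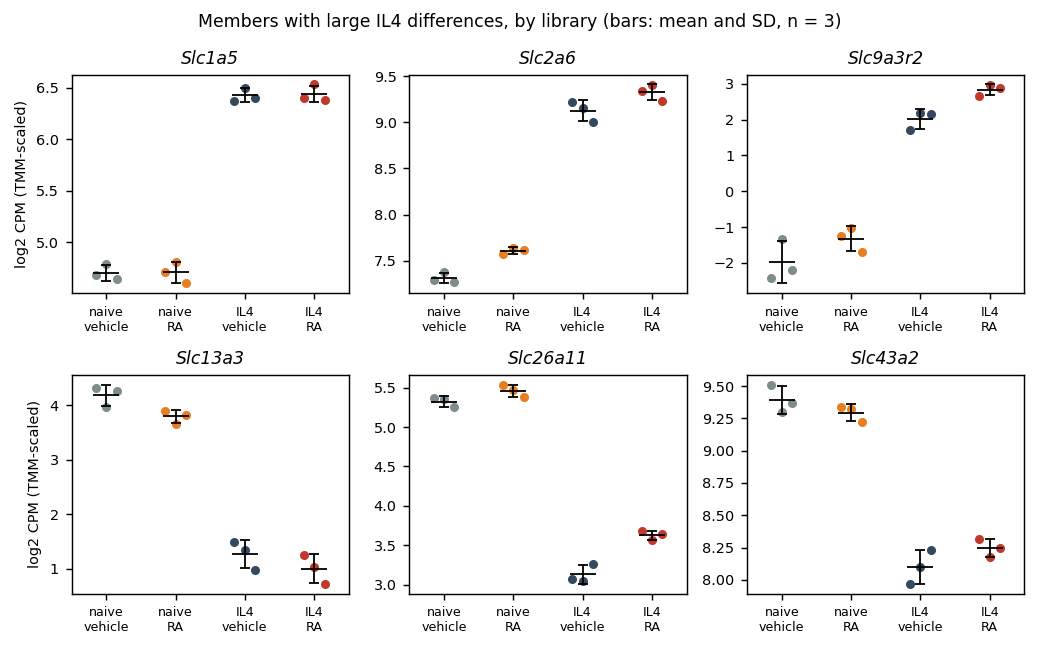
Points are single libraries of 6 members, in log2 CPM on axes that differ between panels and do not start at 0, with the mean and SD of each group (n = 3). IL4 libraries of Slc1a5, Slc2a6 and Slc9a3r2 lie above and those of Slc13a3, Slc26a11 and Slc43a2 below all naive libraries. The scaffold gene Slc9a3r2 is in the set through its IL4 libraries only, so it had to differ.

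Carriers of nucleotide sugars and acetyl-CoA in the ER and Golgi had 1 higher and 10 lower of 21 (52.4% against 60.1% of all genes tested, median -0.09). The carrier that rose was Slc35c1, which brings GDP-fucose into the Golgi (0.17, SE 0.05, limma adjusted p = 0.00621), and the largest decrease was that of Slc35g1 (-0.83, SE 0.14, adjusted p = 0.000151). Slc66a2, the 1 member left without a substrate class, rose by 0.55 (SE 0.05, adjusted p = 6.08e-07). The highest point of the plot by class was the PDZ scaffold Slc9a3r2, which is no carrier and reached 0 log2 CPM in IL4 libraries only: -2.43, -1.32 and -2.21 in naive vehicle, -1.26, -1.02 and -1.71 in naive RA, 1.71, 2.18 and 2.17 in IL4 vehicle and 2.67, 2.96 and 2.87 log2 CPM in IL4 RA libraries. Its IL4 difference of 4.00 is therefore a description with no test. Its RA and vehicle libraries overlapped in naive cells (0.65, adjusted p = 0.201) and not in IL4 cells (0.81, adjusted p = 0.076, and 0.0282 with the replicate block). The related scaffold Slc9a3r1 fell with IL4 by 0.43 (SE 0.04, adjusted p = 6.11e-07) and rose with RA by 0.17 (SE 0.04, adjusted p = 0.0164) in naive and 0.16 (SE 0.04, adjusted p = 0.0171) in IL4 cells. Both RA calls of Slc9a3r1 were lost on leaving out single libraries: naive vehicle 4 or naive RA 2 or 4 (0.0679 to 0.0749), and IL4 vehicle 3 or 4 or IL4 RA 3 or 4 (0.0531 to 0.0695).

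The interaction tested whether the RA effect differed between the cell states, taking the RA difference of naive cells from that of IL4 cells. Of the members 1 was called, Slc8b1, which is 0.581% of the members against 0.38% of all genes tested (0.338% higher and 0.0413% lower). Its RA increase was larger in IL4 cells by 0.38 (SE 0.07, limma adjusted p = 0.0387). The call held without IL4 RA library 4 (adjusted p = 0.0343) and was lost without each of the other 11 libraries (0.0525 to 0.112) and without the intensity trend (0.15). Slc20a1 was next, at 0.35 (SE 0.07, adjusted p = 0.0534), followed among the members named here by Slc36a2 at 1.12 (SE 0.26, adjusted p = 0.124) and Slc26a11 at 0.36 (SE 0.09, adjusted p = 0.189). Without IL4 RA library 4 Slc20a1 passed (adjusted p = 0.0401), and without IL4 vehicle library 4 Slc26a11 passed (0.0489).

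Carriers whose symbols do not start with Slc, a list of 38 organic anion, MFS, water and lysosomal carriers, had 28 genes tested. With RA, 0 were higher and 2 lower in naive cells (Slco4a1 -0.42, Mfsd6 -0.41), which is 7.14% against 6.26% of all genes tested. In IL4 cells 1 was higher and 2 lower (Ctns 0.13, Mfsd6 -0.40, Mfsd1 -0.15), 10.7% against 11.7%. With IL4 in vehicle 8 were higher and 12 lower, 71.4% against 60.1%. Among them were the uncoupling protein Ucp2 (0.57) upward and the lysosomal cholesterol carrier Npc1 (-0.58) downward. The higher calls hold the water and glycerol channel Aqp9, with a mean of -0.37 log2 CPM in naive vehicle. The lower calls hold the synaptic vesicle protein Sv2a and Spns3, with means of -1.90 and -0.96 in IL4 vehicle. Aqp9, Sv2a and Spns3 passed the filter through the cell state where they were high. Their differences (4.66, -2.27 and -1.46) are given with no test, and their calls support nothing in these counts. The median of the list was -0.05 for IL4 in vehicle and 0.01 for RA in IL4 cells.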

How the data were processed

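The deposited table held log2 CPM values of 13553 genes in 12 libraries, scaled by the authors with TMM factors; per the submitters' processing notes bcl2fastq 2.20, Salmon 0.13.1, edgeR 3.32.1 and genome build GRCm38 were used. The libraries were TruSeq stranded mRNA, read from 1 end (101 cycles) on 1 lane, per the labels. The lowest value, -3.67 log2 CPM, is shared by all libraries. The values were analysed as deposited in R 4.3.3 with limma 3.58.1, with a mean for each group, a spread shared by all 12 libraries and moderated by an intensity trend. Genes reaching 1 CPM in 3 or more libraries were tested (12116, with 1437 removed). P-values were two-sided, adjusted by Benjamini-Hochberg per contrast and called below 0.05. The filter's level is that of the membership rule, so all 172 members were tested. The script was tested on simulated data.

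The members and lists were chosen with earlier results of these data known. Named members were, per contrast, the 10 largest called increases and decreases at 4 CPM or more without overlap, the largest called change per substrate class and direction, and a fixed list of 19 well-known carriers; members called in both RA comparisons are listed too, and 1 gene is not reported here. Substrate classes follow SLC families, with Slc2a4rg-ps and Slc36a1os moved to the non-carriers on their symbols after the table was seen. Same-numbered libraries deviated together in the RA comparison of IL4 cells (r = 0.2449, 0.1931 and 0.1281). They also did in the IL4 comparison in vehicle (0.1396, 0.2091 and 0.1821). All of these r were above the bar of 0.1 set for a pairing, which the labels do not state. Only same-numbered libraries were compared, so a pairing cannot be told apart from deviations shared across numbers. The main fit had no term for the replicate number. With that number as a block, called members went from 29 to 35 for RA in IL4 cells. They went from 113 to 117 for IL4 in vehicle and from 1 to 4 for the interaction. Gene positions and promoter sequences are RefSeq's, GRCm38.p6.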

Additional observations from a re-analysis of the deposited data

Results flagged for a closer look

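The RA effect on Slc8b1 differed between the cell states by the test of the difference itself: 0.38 on the log2 scale (SE 0.07, limma adjusted p = 0.0387), with 0.27 in naive and 0.65 in IL4 cells, higher with RA in 3 of 3 libraries of each state. It is the only member of the 172 for which this test passed, and the call was lost without each of 11 of the 12 libraries (adjusted p = 0.0525 to 0.112). Its RA libraries lay in 1 range in both states, and its vehicle libraries were lower in IL4 than in naive cells.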

How the results depend on the processing

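Counts of called members changed by more than 1.5 times for RA in naive cells and for the interaction. For RA in naive cells they went from 19 to 42 with array weights and to between 11 and 22 on leaving out single libraries. Over all genes tested these calls went from 759 to 1950 and to between 416 and 885. For the interaction the member count went from 1 to 2 with log2(CPM + 1), 0 without the intensity trend and 2 with robust moderation. It was 3 with array weights, 4 with the replicate block, and 0 to 2 on leaving out single libraries. Over all genes tested the interaction calls went from 46 to 56, 15, 57, 103 and 78 in these settings, and to between 17 and 67 without single libraries. Leaving out single libraries gave 21 to 30 calls for RA in IL4 cells (29 in the full fit), 106 to 117 for IL4 in vehicle (113) and 107 to 120 for IL4 in RA (120). Calls kept without each of the 12 libraries in turn numbered 10 of 19, 17 of 29, 100 of 113, 97 of 120 and 0 of 1. Under quantile normalization Slc3a2 reversed to -0.117 (adjusted p = 0.0442) for IL4 in vehicle and -0.07 for IL4 in RA; the cause was not tested.

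With the replicate number as a block the counts were 24, 35, 117, 124 and 4. Same-numbered libraries correlated at 0.5105, 0.2774 and 0.0706 in the naive RA comparison, and at 0.0895, 0.1863 and 0.1257 for IL4 in RA. In each the lowest r was under the bar of 0.1 set for a pairing, so neither was taken as paired. The first of these values is the largest of any comparison, so a pairing in naive RA is not excluded. With the block Slc7a8 (adjusted p = 0.00868), Slc37a2 (0.0103) and Slc6a13 (0.0403) passed for RA in naive cells. With the block Slc20a1 and Slc36a2 (adjusted p = 0.04 each) and Slc7a8 (0.0293) passed the interaction test. A filter at 4 CPM left 153 members, with 18, 28, 102, 110 and 1 calls. Of the changes of named members under other settings, 2978 kept direction and side of the threshold, 33 lost and 44 gained a call and 2 reversed; on leaving out libraries 3644 kept both, 113 lost and 23 gained a call. Depth is not known, so no counting error is given, and members near 0 log2 CPM such as Slc26a9 are the least precise.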

Other observations

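The element TTCNNNNGAA, a spelling of the sequence STAT6 binds, was searched on both strands in the promoter windows. It was in 7 of 129 members with a window (5.43%) and in 6.76% of the tested genes with one. It was in 4 of the 32 members with a window that were higher with IL4 in vehicle (12.5%) and in 2 of the 52 that were lower (3.85%). These shares are descriptions over few genes and were not tested.

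Of the 172 members, 36 were called in none of the RA and IL4 comparisons. The same count over all genes tested was not made, so the 36 cannot be read as many or few. Among these members were the monocarboxylate carrier Slc16a7, at 4.57, 4.31 and 4.29 log2 CPM in naive vehicle and 4.52, 4.45 and 4.52 in IL4 vehicle libraries, the citrate carrier Slc25a1, and the phosphate importer Slc20a2, the close relative of Slc20a1. These 3 were named after their values were seen.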
